A study of Mus musculus with 14 samples.

Results

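The subunits of the oxidative phosphorylation machinery were followed as 90 genes of the 46855 in the deposited expression table. They were taken by name (Nduf, Sdh, Uqcr, Cox4 to Cox8, Atp5 and the mitochondrial mt-Nd, mt-Co, mt-Cytb and mt-Atp names, without pseudogenes) and by a mean level of at least 1 TPM (transcript level scaled for gene length and for the library total) over 14 libraries. Of the 90, 81 are nuclear genes and 9 are encoded by mitochondrial DNA. The names alone matched 97 genes, 13 of them mitochondrial. Just inside the minimum lay mt-Co2 at a mean of 1.01 TPM and mt-Co3 at 2.21 TPM, and just outside it mt-Atp6 at 0.528 TPM, mt-Nd3 at 0.413 TPM and Cox6a2 at 0.36 TPM. The others outside it were mt-Atp8 (0.312 TPM), mt-Nd4l (0.024 TPM), and Cox7b2 and Cox8c, which were listed at 0. A name is not always a subunit: Atp5s and Atp5sl are called Dmac2l and Dmac2 in RefSeq and are no structural part of ATP synthase. Cox7a2l is known as a factor of supercomplexes of complexes III and IV.

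RNA was measured in whole ileum, the distal small intestine, of wild-type C57BL/6N mice, an inbred strain shared by all groups. There were 4 libraries of untreated suckling mice aged 14 days (P14) and 4 of untreated mice aged 24 days (P24), about the time of weaning. Of the injected mice, 3 libraries had received 100 µL phosphate-buffered saline (PBS) and the other 3 recombinant mouse interleukin-22 (rmIl22), at 0.1 µg per g body weight in that volume. Both kinds were injected on days 14 and 15 and sampled on day 16, whereas the deposited age field gives day 14 for PBS and day 24 for rmIl22. IL-22 is a signal from immune cells to epithelium, and the series asks what weaning and IL-22 change in the ileum.

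Oxidative phosphorylation takes electrons from NADH and succinate through complexes I and II to complex III, cytochrome c and complex IV, where oxygen is reduced, and the proton gradient built on the way drives ATP synthase (complex V). Complexes I, III, IV and V hold subunits of both genomes, while complex II is wholly nuclear. Absorptive enterocytes carry many mitochondria, since nutrient uptake against a gradient uses ATP.

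Each library held 35.7 to 46.5 M reads in genes. Most members are well covered, and the lowest rest on few reads (Cox8b on 3 to 71 per library, mt-Co2 on 9 to 23). Epithelial marker genes were abundant in every library, with 10 markers summing to 7500 to 9500 TPM at P14 and 13300 to 16300 TPM at P24. The rise of that sum was uneven over the markers. In the test given below 5 of the 10 were called higher at P24 and 1 lower, where 14.6% and 43.7% of all genes were. Krt20 rose most (4.37 on the log2 scale), Krt18 fell (-1.06) and Epcam did not pass (0.08). TPM shares a fixed total, and over the 14651 genes tested at P24 against P14 the median log2 fold change was -0.25. Counts are therefore also given after scaling each library to the median ratio of its genes (median-scaled TPM), where the median of all genes was -0.03. Libraries with Xist, an RNA of the inactive X chromosome, at 1 TPM or more numbered 2 of 4 at P14, 3 of 4 at P24, 0 of 3 in PBS and 2 of 3 in rmIl22, so the injected groups differ in this. In whole tissue, fewer cells of a type and less RNA per cell cannot be told apart.

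At P24 against P14, more subunits rose than fell, with most of the larger rises in complex IV. Of 89 members tested, 34 rose and 9 fell (limma on log2(TPM + 1), Benjamini-Hochberg adjusted p under 0.05), where 14.6% of all genes were called higher and 43.7% lower. The median log2 fold change of the members was 0.16. Values per library are given in the order P14 libraries 1, 2, 4 and 5, then P24 libraries 1, 2, 6 and 8. On median-scaled TPM 63 rose and 4 fell, with a median of 0.41, against 26.6% and 31% of all genes. In voom, limma's weighted fit for counts, on the reads recovered from the TPM, 68 rose and 4 fell, against 29.5% and 28.7% of all genes. In the authors' deposited table of this comparison 68 members were higher and 4 lower at an adjusted p under 0.05, with a median log2 fold change of 0.48 against 0.02 over all genes in it. Of the 23529 genes in that table, 4748 were higher and 4726 lower at the same threshold. In 31 members every P24 library lay above every P14 library, and in 12 every P24 library lay below, where 13% and 39.4% of all genes did so. The rise was mostly modest: outside 2 alternative isoforms, the largest was 0.83 on the log2 scale.

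**Figure D1:**
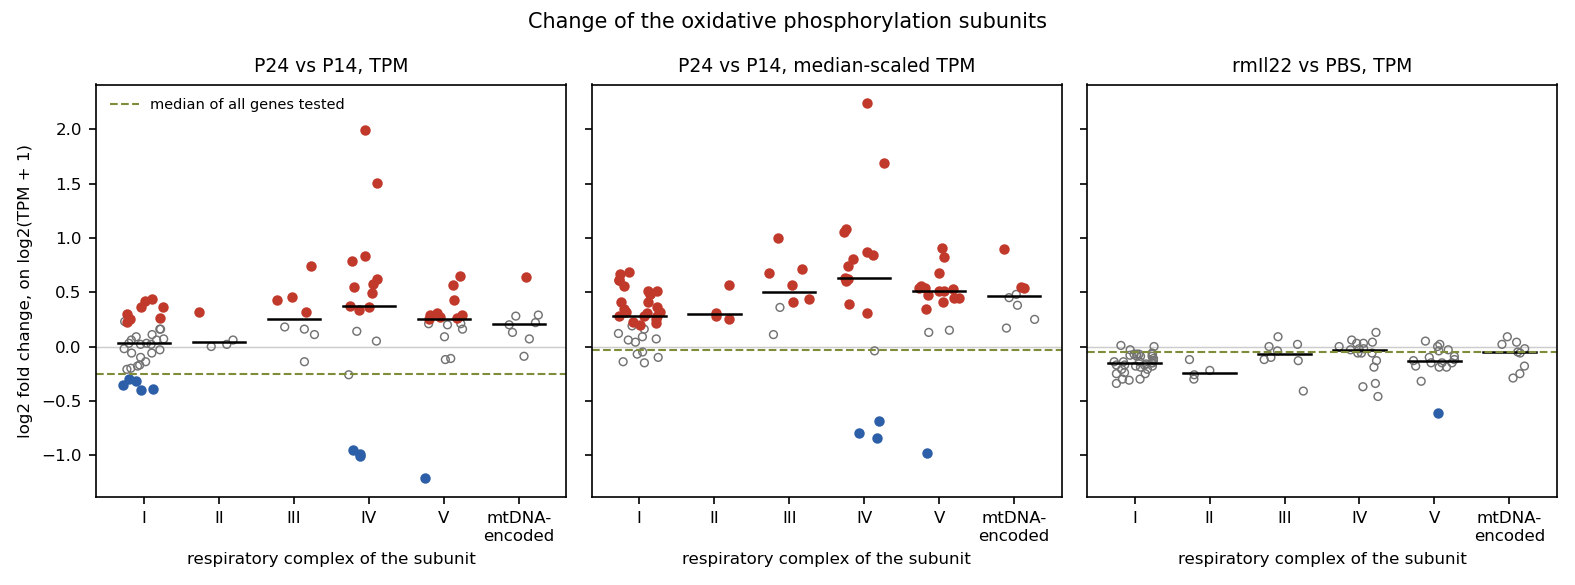
Log2 fold change of each subunit by respiratory complex, for P24 against P14 on TPM (left) and on median-scaled TPM (middle) and for rmIl22 against PBS on TPM (right). Red and blue points passed the test as higher or lower, open points did not, black bars are medians of the complex and dashed lines the median of all genes tested. Complex IV has the highest median at P24 (0.37 on TPM) and complex I stays near 0 on TPM (0.03), while under rmIl22 only 1 point is coloured.

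The counts by complex below stand beside 14.6% of all genes called higher and 43.7% lower on TPM, and 26.6% and 31% on median-scaled TPM. Complex I, the NADH dehydrogenase, had the lowest median of the nuclear complexes on TPM. Of its 35 nuclear subunits 8 rose, 5 fell and 22 did not pass, with a median of 0.03. On median-scaled TPM 23 rose and 0 fell (0 were lower at an unadjusted p under 0.05 in limma, and 0 in voom). Among those that rose were Ndufb6, Ndufs4, Ndufa1, Ndufc1 and Ndufb9, and the 5 that fell were Ndufb4, Ndufa2, Ndufv3, Ndufa7 and Ndufb11. Those 5 falls did not pass on median-scaled TPM, where their log2 fold changes ran from -0.15 to -0.05. Ndufb4, an accessory membrane-arm subunit, had 79.27, 74.68, 67.7 and 72.14 TPM at P14 and 59.73, 50.6, 53.69 and 57.28 TPM at P24, a log2 fold change of -0.40 (SE 0.09, adjusted p = 0.0027) that was -0.15 (adjusted p = 0.227) on median-scaled TPM. Its groups did not overlap.

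Of the 7 nuclear core subunits of complex I, which hold its redox centres, 2 rose and 5 did not pass, and of the 28 accessory subunits 6 rose and 5 fell. Ndufs1, which carries iron-sulfur clusters, read 25.76, 32.59, 33.64 and 25.82 TPM at P14 and 28.27, 31.22, 27.02 and 25.95 TPM at P24. The groups overlapped fully, and its log2 fold change of -0.06 (adjusted p = 0.68) turned to 0.25 (adjusted p = 0.0289) in voom on the recovered reads, with adjusted p from 0.0289 to 0.967 over 15 alternatives. Ndufv1, which binds NADH, stood at 82.74, 93.42, 100.7 and 83.84 TPM against 98.13, 90.96, 92.87 and 85.52 TPM (0.03, adjusted p = 0.801). On median-scaled TPM Ndufv1 passed at 0.28 (adjusted p = 0.00948).

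Complex II, which links the citric acid cycle to the chain, had 1 of 4 subunits called on TPM and all 4 higher on median-scaled TPM. Sdhb, its iron-sulfur subunit, measured 140.6, 148.5, 144.2 and 138.2 TPM at P14 and 191.4, 174.2, 183.9 and 165.5 TPM at P24. The groups were fully apart, with a log2 fold change of 0.32 (SE 0.08, adjusted p = 0.00722). Sdha, the flavoprotein, was spread more widely, with 141.2, 181.2, 193.1 and 142.2 TPM against 173.9, 197.8, 167.9 and 143.4 TPM (0.06, adjusted p = 0.721). The membrane anchors Sdhc (0.00) and Sdhd (0.02) did not pass either on TPM.

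In complex III, the cytochrome bc1 complex, 4 of 8 subunits rose and 0 fell, with a median of 0.25 (0 were lower at an unadjusted p under 0.05, in the median-scaled fit and in voom as well). Uqcrb, which lies at the ubiquinone site, rose most, from 328.2, 349.7, 329.4 and 303.9 TPM to 533.6, 566.4, 566.8 and 529.7 TPM. The lowest P24 library was far above the highest P14 library, and the log2 fold change was 0.74 (SE 0.09, adjusted p = 3.04e-05). Uqcrfs1, the Rieske iron-sulfur protein, read 193.6, 214.2, 206.1 and 181.3 TPM against 292.4, 261.3, 277.3 and 263.4 TPM (0.46, SE 0.09, adjusted p = 0.0012). Uqcrc1, a core protein, went from 101.3, 123.9, 129.8 and 105.2 TPM to 160.4, 158.7, 157 and 141.1 TPM (0.43, SE 0.10, adjusted p = 0.00423). Both sets of P24 values lay above all P14 values. Uqcrc2 was the other riser (0.32), and Uqcrq had the lowest value (-0.14, adjusted p = 0.179).

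Complex IV, cytochrome c oxidase, held the largest rises and 3 of the falls: 11 of 17 nuclear members rose and 3 fell. Among its 11 common subunits, those made in all tissues, 9 rose and 0 fell on TPM and all 11 rose on median-scaled TPM, with medians of 0.49 and 0.74. Cox7b, a small subunit encoded on the X chromosome, read 361, 326.2, 302.6 and 284.5 TPM at P14 and 539, 531.8, 588.4 and 602.7 TPM at P24 (log2 fold change 0.83, SE 0.10, adjusted p = 3.96e-05, and 0.85 with a term for Xist). Cox5a, a matrix-side subunit, read 349.7, 393.8, 361 and 353.3 TPM against 652, 630.5, 658.7 and 582.9 TPM (0.79, SE 0.09, adjusted p = 2.39e-05). In both genes the lowest P24 library was well above the highest P14 library. Cox6c (0.62), Cox7a2 (0.58), Cox6a1 (0.55), Cox6b1 (0.49), Cox7c (0.37), Cox8a (0.36) and Cox5b (0.34) rose too. Of the subunits with an alternative isoform, Cox6a1 read 533.4, 560.9, 529.2 and 480.3 TPM at P14 and 798.9, 725.7, 806.5 and 756.2 TPM at P24, Cox6b1 913.5, 908.2, 857.4 and 792.9 TPM at P14 and 1269, 1128, 1265 and 1202 TPM at P24 and Cox8a 826.7, 801.1, 784.1 and 731.1 TPM at P14 and 1096, 969.1, 1054 and 934.5 TPM at P24, none with an overlap of the groups. The 2 common subunits that did not pass on TPM were Ndufa4 (328.3, 302.1, 278.9 and 267 TPM at P14 and 293.9, 296.1, 305.7 and 321.8 TPM at P24, 0.05), now counted to complex IV in spite of its name, and Cox4i1, which read 829.8, 746.4, 672.7 and 676.4 TPM against 826.8, 726.9, 851.7 and 809.8 TPM (0.14, adjusted p = 0.287). On median-scaled TPM Cox4i1 passed at 0.39 (adjusted p = 0.0211).

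Alternative isoforms replace a common subunit in some tissues, and they moved in opposite directions. Cox7a1, the isoform known from heart and skeletal muscle and brown fat (GRCm38.p6 chromosome 7, 30184171 to 30186030), had the largest rise of all members. It read 45.2, 53.31, 46.68 and 58.14 TPM at P14 and 229.3, 179.3, 204.8 and 205.5 TPM at P24, a log2 fold change of 1.99 (SE 0.11, adjusted p = 4.34e-08). Every P24 library was far above the highest P14 library, and the mean was 4.03-fold higher, from 50.83 ± 6.01 to 204.7 ± 20.4 TPM (SD, n = 4 each). Its common partner Cox7a2 rose less, from 412.7, 388.9, 347.8 and 347.3 TPM to 571.7, 524.4, 596.4 and 549.8 TPM (0.58, SE 0.10, adjusted p = 3.87e-04). Cox7a1 thus made up 9.87 to 14.3% of the summed TPM of the pair at P14 and 25.5 to 28.6% at P24.

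Cox8b, the muscle and brown fat isoform of Cox8a, rose from 2.92, 0.741, 1.21 and 2.25 TPM to 3.35, 9.12, 6.2 and 9.27 TPM (a log2 change of 1.51, SE 0.30, adjusted p = 0.00124). The groups did not overlap, but P24 library 1 was close to P14 library 1, and Cox8b stayed under 1% of the Cox8a and Cox8b sum in every library. Cox4i2, an isoform known from lung and from low oxygen, fell from 4.08, 3.35, 4.76 and 3.42 TPM to 1.22, 1.28, 1.29 and 1.92 TPM (-1.01, SE 0.14, adjusted p = 9.02e-05). Ndufa4l2, a paralogue of Ndufa4 induced by hypoxia-inducible factor, fell from 4.89, 4.24, 6.19 and 4.97 TPM to 2, 1.75, 2.25 and 2.17 TPM (-0.99, SE 0.13, adjusted p = 4.51e-05). Both low isoforms were apart between the ages and also fell on median-scaled TPM. Cox6b2, the testis isoform of Cox6b1, stood at 6.57, 7.43, 8.48 and 8.76 TPM against 5.92, 7.32, 5.32 and 6.91 TPM and did not pass (-0.26, adjusted p = 0.0969). Cox6a2, the muscle isoform of Cox6a1, was under the minimum with a mean of 0.36 TPM.

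**Figure D2:**
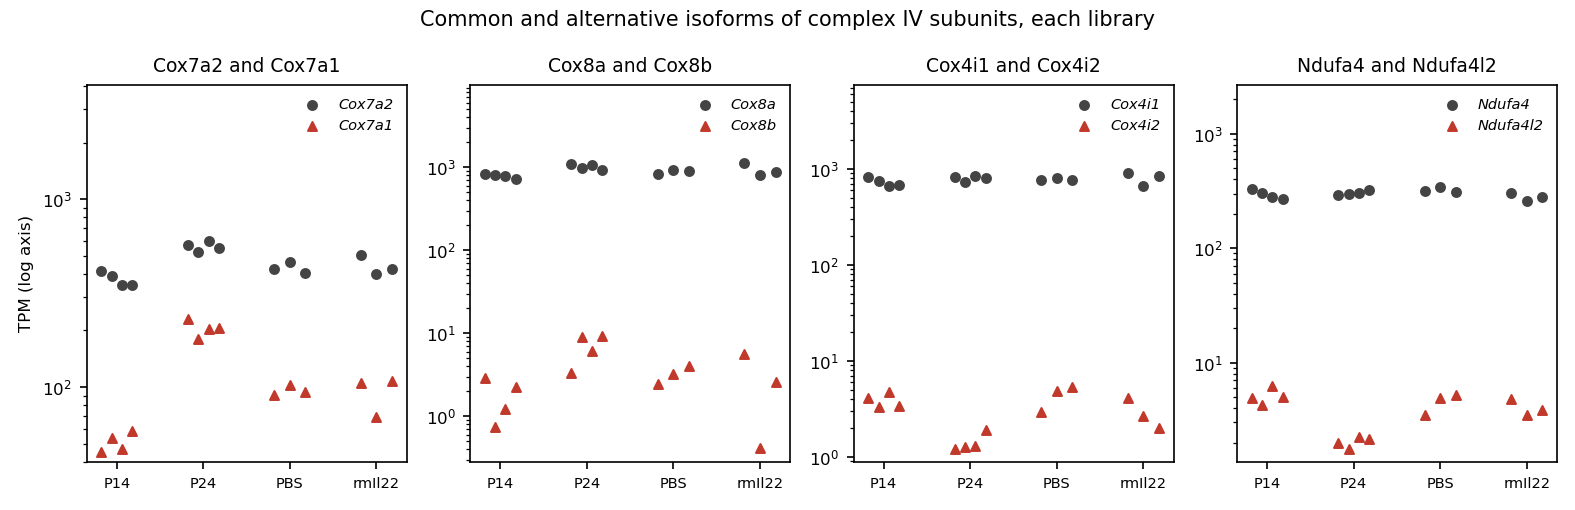
TPM of 4 complex IV subunits (circles) and of their alternative isoforms (triangles) in each library, on log axes, by group. The Cox7a1 triangles move from 45.2 to 58.14 TPM at P14 up to 179.3 to 229.3 TPM at P24 with both injected groups between them, whereas Cox4i2 and Ndufa4l2 fall at P24 and stay far under their common partners.

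Some markers of muscle and fat differed between the ages too, where 14.6% of all genes rose and 43.7% fell. Of 8 smooth muscle markers 2 rose and 0 fell. Their sums overlapped, with 1700 to 3390 TPM at P14 and 2250 to 3580 TPM at P24. Of 7 skeletal or heart muscle markers, 3 were tested and 1 was called, the skeletal actin Acta1 (higher at P24), and their summed level was 13.4 to 24.1 TPM at P14 and 38.8 to 90.7 TPM at P24. The muscle myosins Myh1, Myh4 and Myh6 were at or under 0.02 TPM in every library. Of 6 adipocyte markers tested 5 rose and 1 fell, with summed levels of 127 to 172 and 241 to 416 TPM. Of 3 brown adipocyte markers only Cidea was tested, and it fell (-0.76, adjusted p = 0.00686 in limma). The brown fat uncoupler Ucp1 was listed at 0 in all P14 libraries and at 0.034 TPM in P24 library 2 only. Adipoq, an adipocyte hormone, was listed at 0 in P14 library 2, where Cox7a1 was at 53.31 TPM and Cox8b at its lowest P14 value. P24 library 1 had the least Adipoq of its group (32.03 TPM), the least Cox8b and the most Cox7a1. P24 library 2 had the most Adipoq (57.9 TPM) and Acta1 (69.98 TPM), 9.12 TPM of Cox8b and the least Cox7a1. Between the ages, Adipoq (3.03 on the log2 scale) and Acta1 (3.84) rose, as Cox7a1 and Cox8b did. Other cell types moved as well: of 6 ileal enterocyte markers 3 rose and 2 fell, with Fabp6 at 345.6 to 1181 TPM at P14 and 14370 to 21410 TPM at P24 and falls of Lct (-5.85) and Alpi (-1.99), and their sum went from 8730 to 14200 TPM to 23200 to 33200 TPM. Of the neuron and glia markers, 6 of 6 fell, in sum from 41.5 to 58 TPM to 10 to 14.9 TPM. Fibroblast markers fell in 5 of 6 and endothelial markers in 4 of 4. Blood leukocyte markers rose in 2 of 5 tested and red blood cell markers in 4 of 5, and 0 of either fell. The part of such cells in the values of Cox7a1, Cox8b and the other members was not tested.

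Cox7a2l, known as a supercomplex factor of complexes III and IV, was the most abundant member to fall. Its function in these mice was not measured. It read 494.6, 429.9, 363.1 and 376.2 TPM at P14 and 228.1, 183.8, 214.8 and 232.7 TPM at P24, a log2 fold change of -0.95 (SE 0.12, adjusted p = 5.16e-05) and -0.69 (adjusted p = 0.00202) on median-scaled TPM. The groups did not overlap, and the mean at P24 was 0.517 of that at P14. The common subunits of complexes III and IV went the other way or did not pass.

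Complex V, ATP synthase, rose in 9 of 17 members and fell in 1, with a median of 0.25. By place in the enzyme, 3 of 5 tested subunits of F1, the catalytic head with its central shaft, rose, and 3 of 4 of the side stalk. In the c ring 1 of 3 rose, and 2 of 3 of the other membrane subunits. In 0 of the 5 F1 subunits did every P24 library lie above every P14 library. Atp5k, the membrane subunit e, rose most, from 337, 337, 310.4 and 297.9 TPM to 491.2, 465.3, 541.1 and 524.3 TPM (a log2 change of 0.65, SE 0.09, adjusted p = 1.25e-04). The groups were fully apart. Atp5o, the subunit that confers oligomycin sensitivity, rose by a log2 fold change of 0.57, Atp5j2 by 0.43, Atp5e by 0.31, Atp5f1 by 0.29, Atp5d by 0.26 and Atp5j by 0.25. Atp5b, the catalytic beta subunit, read 570.2, 656.6, 679.8 and 539.4 TPM at P14 and 762.8, 751.5, 749.7 and 677.9 TPM at P24 (0.27, SE 0.11, adjusted p = 0.048). P24 library 8 fell inside the P14 range, the call was lost in 9 of 15 alternatives, and the adjusted p ranged from 6.96e-04 to 0.114. Atp5a1, the alpha subunit, read 596.3, 719.2, 740.2 and 565.7 TPM against 749.2, 756.8, 743.2 and 655.7 TPM and did not pass (0.16, adjusted p = 0.272).

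The c ring, through which protons pass, is made from 3 genes that encode the same mature peptide. Atp5g3 held 66 to 71.5% of their summed TPM in untreated mice. It rose from 214.2, 242.7, 244.4 and 207.5 TPM to 285.3, 263.7, 290.1 and 270.6 TPM (log2 fold change 0.29, SE 0.09, adjusted p = 0.0193), a call lost without P24 library 1 or without P24 library 6 (adjusted p from 1.30e-04 to 0.0668 over the alternatives). Atp5g1 (49.73, 55, 58.22 and 49.36 against 66.38, 57.64, 62.23 and 58.56 TPM, 0.20, adjusted p = 0.0767) and Atp5g2 (60.45, 55.53, 59.85 and 51.58 against 55.17, 47.61, 53.72 and 51.77 TPM, -0.12, adjusted p = 0.259) did not pass. The Atp5g2 share of the ring's TPM was 15.7 to 18.6% at P14 and 12.9 to 13.6% at P24, without overlap.

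Atp5s had the largest fall of all members and lies on chromosome 12 (GRCm38.p6, 69724913 to 69744665). It read 15.26, 17.68, 17.41 and 14.63 TPM at P14 and 7.17, 5.84, 6.05 and 6.65 TPM at P24 (log2 fold change -1.21, SE 0.10, adjusted p = 2.01e-06, and -0.98 on median-scaled TPM). The groups were far apart, with means of 16.25 ± 1.52 and 6.43 ± 0.604 TPM (SD, n = 4 each). Atp5sl, the other gene of this name that is no structural subunit, did not pass on TPM (0.21, adjusted p = 0.111) and was higher on median-scaled TPM (0.45).

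**Figure D3:**
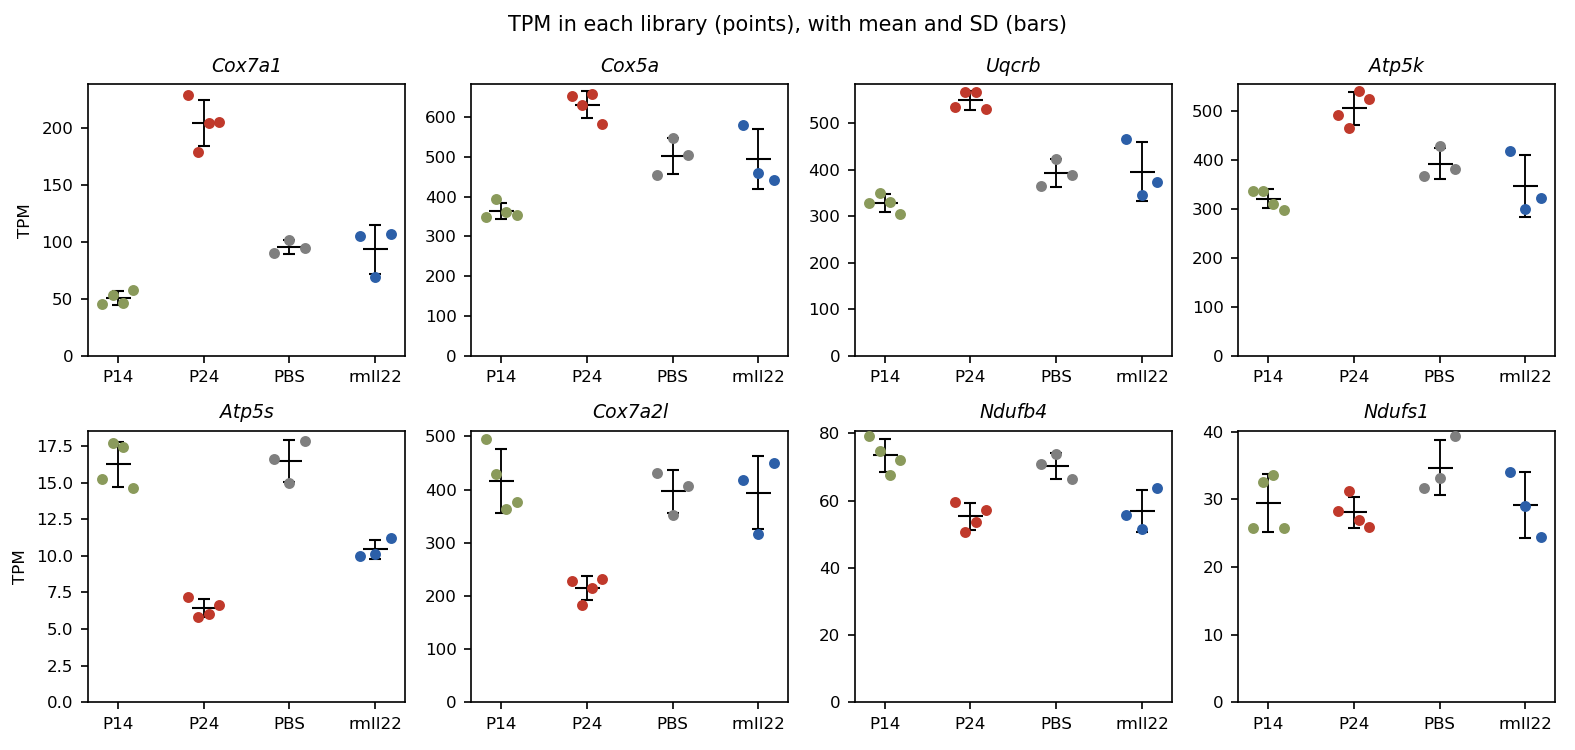
TPM in every library (points) with the group mean and SD (bars) for 8 subunits, from axes that start at 0. Cox7a1, Cox5a, Uqcrb and Atp5k are higher at P24 than at P14, Atp5s, Cox7a2l and Ndufb4 are lower, Ndufs1 overlaps, and in Atp5s the 3 rmIl22 libraries (10.01 to 11.2 TPM) lie under the 3 PBS libraries (14.98 to 17.83 TPM).

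Promoters of members at both ends of the range are shown to set their sequence beside the changes. All 81 nuclear members matched a RefSeq gene and 68 had a window of 250 bases before to 50 after the start in the RefSeq promoter table (GRCm38.p6, 27025 genes). Both strands were searched for the palindromic consensus of NRF1, a regulator of respiratory genes, CCGGAAG (the core bound by ETS factors such as GABP), AAGATGGCG (YY1), TNAAGGTCA (estrogen-related receptors) and CTA and TAG with any 4 bases between them (a looser word than the consensus of MEF2, a muscle factor, which needs A or T there), and matches of different words overlapped in 0 of the 68 windows. The NRF1 word was present in 7.35% of the members' windows against 1.07% of all windows, the ETS word in 23.5% against 9.93% and the YY1 word in 11.8% against 1.64%. For the estrogen-related receptor word the shares were 4.41% and 1.43%, and for the loose MEF2 word 1.47% and 4.23%. The shares in the 28 risers with a window (NRF1 10.7%, ETS 28.6%, YY1 14.3%) and in the 34 members that did not pass (5.88%, 23.5%, 11.8%) rest on 3 against 2, 8 against 8 and 4 against 4 genes. The windows below are of Cox7a1, the largest rise (chr7:30183921-30184220, plus strand), of Atp5k, a riser with 2 of the words (chr5:108434350-108434649, minus strand), and of Atp5s, the largest fall (chr12:69724695-69724994, plus strand), with matched words in capitals.
Cox7a1: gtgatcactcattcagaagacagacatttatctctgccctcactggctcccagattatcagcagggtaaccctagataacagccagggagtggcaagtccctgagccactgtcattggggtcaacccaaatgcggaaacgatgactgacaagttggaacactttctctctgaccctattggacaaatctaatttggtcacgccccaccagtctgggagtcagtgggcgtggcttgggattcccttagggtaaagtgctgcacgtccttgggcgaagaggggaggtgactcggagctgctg
Atp5k: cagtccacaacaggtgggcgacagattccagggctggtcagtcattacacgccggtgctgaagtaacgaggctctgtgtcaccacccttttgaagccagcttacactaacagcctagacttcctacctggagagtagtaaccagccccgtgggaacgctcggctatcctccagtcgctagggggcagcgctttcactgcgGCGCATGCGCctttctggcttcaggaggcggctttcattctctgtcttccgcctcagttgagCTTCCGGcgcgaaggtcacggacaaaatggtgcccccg
Atp5s: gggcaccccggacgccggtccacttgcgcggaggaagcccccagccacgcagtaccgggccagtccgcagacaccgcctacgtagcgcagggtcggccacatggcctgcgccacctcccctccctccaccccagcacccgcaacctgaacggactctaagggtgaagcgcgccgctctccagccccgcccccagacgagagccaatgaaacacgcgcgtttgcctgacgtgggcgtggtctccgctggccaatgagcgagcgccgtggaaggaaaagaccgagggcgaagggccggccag
In the Atp5k window the NRF1 word starts at base 201 and the ETS word, on the other strand, at base 263, counted from the 5′ end. The windows of Cox7a1 and Atp5s hold none of the 5 words, which says only that these letters are not there.

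The 9 mitochondrially encoded members differed widely in level, from mt-Co1 at a mean of 15180 TPM to mt-Co2 at 1.01 TPM, although all lie on the same genome. Together they made up 1.41 to 2.34% of a library's TPM, and the 81 nuclear members 1.55 to 2.09%. Of 8 tested at P24 against P14, 1 rose and 0 fell on TPM (0 were lower at an unadjusted p under 0.05 and in voom), 3 rose on median-scaled TPM and 6 in voom on the recovered reads. Of all genes 14.6%, 26.6% and 29.5% were called higher in these fits, so the count on TPM was near the share of all genes. Without P14 library 5, or without P24 library 1, 2 of the mitochondrially encoded members rose on TPM. Over genes with a mean of at least 10 TPM, their median coefficient of variation was 18.7% against 7.24% for the nuclear members at P14, 14.4% against 5.44% at P24 and 21.9% against 14% in rmIl22, but 5.29% against 6.12% in PBS. The riser was mt-Cytb, the cytochrome b of complex III, with 1038, 1473, 1677 and 1337 TPM at P14 and 1792, 2233, 2135 and 2387 TPM at P24 (log2 fold change 0.64, SE 0.16, adjusted p = 0.00454). Its groups did not overlap. The catalytic subunit mt-Co1 read 12470, 16220, 17050 and 12070 TPM against 15340, 17580, 17030 and 16910 TPM and did not pass (0.22, adjusted p = 0.289). For mt-Nd1, a membrane subunit of complex I, the values were 2062, 2855, 3081 and 2273 TPM against 2044, 2522, 2457 and 2559 TPM (-0.09, adjusted p = 0.645). P14 libraries 2 and 4 were high and P14 libraries 1 and 5 low in all 3 of these genes.

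Low mitochondrial genes coincided with copies of mitochondrial DNA in the nuclear genome. On chromosome 1 (GRCm38, 24611535 to 24616197, minus strand) lies a run of annotated pseudogenes that repeats the genes from mt-Co1 to mt-Nd4. At an identity of at least 99%, these copies covered 99.6% of mt-Co2, 99.6% of mt-Atp6, 99.9% of mt-Co3, 99.1% of mt-Nd3 and 99% of mt-Nd4l, the 5 genes with means of 0.024 to 2.21 TPM and at most 48 reads per library. They covered 63.6% of mt-Nd4 (297 TPM) and 31.3% of mt-Co1, and none of mt-Nd1, mt-Nd2, mt-Nd5, mt-Nd6 or mt-Cytb (132 to 2410 TPM). For mt-Atp8, at 0.312 TPM, no annotated copy was found. It overlaps mt-Atp6 and lies between mt-Co2 and mt-Atp6, which both have copies in this run. The search covered annotated nuclear transcripts only, so a copy of mt-Atp8 without annotation would not have been seen. In the same table the pseudogene Gm28661, the copy of mt-Co2, was listed at a mean of 10.8 TPM, above mt-Co2 itself. How the counting treated reads that fit both places is not stated in any source used here, and the values of mt-Co2 and mt-Co3 cannot be told apart from those of their copies. The part of the copies in the low levels was not tested. Shown are the first bases of mt-Co2 (chrM:7013-7092, plus strand) beside its copy (chr1:24615486-24615565, minus strand), and a stretch of mt-Cytb (chrM:14146-14225, plus strand) beside its closest annotated copy (chr4:80003990-80004069, plus strand), with differing bases in capitals.
mt-Co2: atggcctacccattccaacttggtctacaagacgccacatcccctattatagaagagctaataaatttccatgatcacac
Gm28661: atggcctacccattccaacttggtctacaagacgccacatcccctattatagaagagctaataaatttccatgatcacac
mt-Cytb: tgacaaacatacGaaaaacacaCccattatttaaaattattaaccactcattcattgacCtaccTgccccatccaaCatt
Gm11410: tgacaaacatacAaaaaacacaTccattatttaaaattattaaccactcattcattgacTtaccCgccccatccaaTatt
The mt-Co2 copy matched over all 681 aligned bases, and 0 of the 80 shown differ. The mt-Cytb copy had an identity of 92.91% over 1142 aligned bases with 81 mismatches, 5 of them in the stretch shown, and Gm11410 stood at 0.0124 TPM against 1700 TPM for mt-Cytb.

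**Figure D4:**
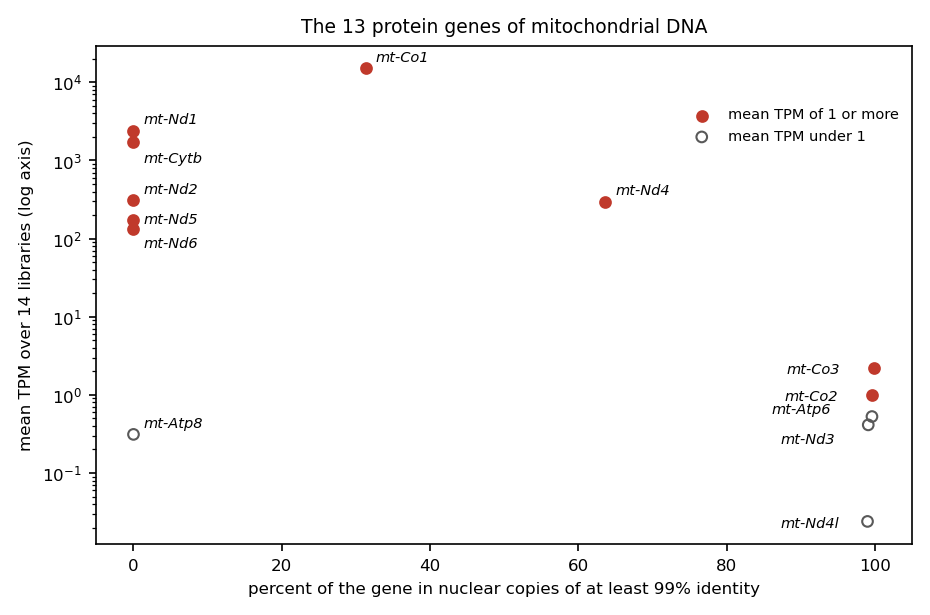
Mean TPM over the 14 libraries (log axis) of the 13 protein genes of mitochondrial DNA against the share of each gene that lies in nuclear copies of at least 99% identity. Genes covered to 99% or more sit between 0.024 and 2.21 TPM, the others at 132 TPM or more, except mt-Atp8 at 0.312 TPM with no annotated copy.

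Neither mt-Co2 nor mt-Co3 differed between the ages beyond the spread. mt-Co2 read 0.927, 1.18, 1.07 and 0.894 TPM at P14 and 0.733, 0.982, 0.772 and 1.59 TPM at P24, did not meet the expression filter of this comparison, and gave p = 1 in an exact two-sided permutation test over 70 regroupings. For mt-Co3 the values were 2.1, 2.74, 2.17 and 1.72 TPM against 1.97, 2.5, 2.64 and 2.23 TPM (0.07, adjusted p = 0.657).

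Assembly factors had a lower median than the subunits on both scales. Of 49 assembly factors tested, proteins that help build the 5 complexes without staying in them, 2 rose and 24 fell on TPM, with a median of -0.28, and 14 rose and 17 fell on median-scaled TPM, with a median of -0.04. These medians were close to those of all genes (-0.25 and -0.03), and the falls to the 43.7% and 31% of all genes called lower. Complex II assembly factors fell in 4 of 4 on TPM and in 3 of 4 on median-scaled TPM, while all 4 subunits of that complex were higher on the latter. The largest falls by complex were Tmem126b for complex I (-0.77), Sdhaf3 for complex II (-0.73), Uqcc3 for complex III (-0.75), Cox19 for complex IV (-0.92) and Atpaf2 for ATP synthase (-0.84). Sco1, a copper chaperone of complex IV, was the largest rise among them, with 15.38 TPM at P14 and 33.75 TPM at P24 (1.09, adjusted p = 5.91e-06). Of 77 mitochondrial ribosomal proteins, which translate the mitochondrially encoded subunits, 4 rose and 26 fell on TPM, and 27 rose and 6 fell on median-scaled TPM. Of all genes 14.6% rose and 43.7% fell on TPM, and 26.6% and 31% on median-scaled TPM. The sign of this list's median depended on the scaling (-0.11 and 0.13), but on both scales it lay above that of all genes (-0.25 and -0.03). The extremes of the ribosomal list were Mrps28 (0.42) and Mrpl23 (-1.07). Of 22 genes of mitochondrial DNA copying, transcription and RNA handling 2 rose and 10 fell (5 and 6 on median-scaled TPM), where again 43.7% and 31% of all genes were lower, and its extremes were the DNA polymerase Polg (-1.22) and Mterf3 (0.43).

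Electron and nucleotide carriers included Cycs, whose rise was close in size to that of Cox7a1. Among 13 electron carriers, adenine nucleotide carriers and porins 6 rose and 2 fell (10 and 2 on median-scaled TPM). Over all genes 14.6% rose and 43.7% fell (26.6% and 31% on median-scaled TPM). Cycs, the somatic cytochrome c that feeds complex IV, had 35.43 TPM at P14 and 141.7 TPM at P24, a rise of 1.97 on the log2 scale (adjusted p = 7.58e-09), and Cyc1, the cytochrome c1 of complex III, rose from 165.6 to 293.5 TPM (0.82). Slc25a5, an ADP/ATP carrier, rose from 566.8 to 1488 TPM (1.39), and Ucp2, a mitochondrial carrier named for its likeness to Ucp1, from 14.16 to 32.77 TPM (1.16), whereas Slc25a4 (0.20) and the porin Vdac1 (0.20) did not pass on TPM. Etfb, of the electron transfer flavoprotein used in fatty acid oxidation, fell from 72.65 to 30.26 TPM (-1.24). Of 17 genes of the citric acid cycle and pyruvate dehydrogenase 5 rose and 1 fell (12 and 0 on median-scaled TPM), among them citrate synthase Cs (0.54) and Sucla2 (0.58), and the fall was Suclg2 (-0.39), which did not pass on median-scaled TPM.

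Of 10 regulators of mitochondrial biogenesis tested 1 rose and 3 fell on TPM, where 14.6% of all genes rose and 43.7% fell. On median-scaled TPM 2 rose and 1 fell, against 26.6% and 31% of all genes. Ppargc1b, a coactivator, rose from 2.24 to 4.27 TPM (0.72, adjusted p = 0.0012). Ppara, the fatty acid receptor, fell by 0.63 on the log2 scale, a call kept in all 15 alternatives. The fall of Ppargc1a (-0.31, adjusted p = 0.04) was lost in 13 of 15 alternatives, with adjusted p from 0.014 to 0.535. The fall of Gabpa (-0.35, adjusted p = 0.0179) was lost in 4, on median-scaled TPM, in voom, and without P14 library 2 or P24 library 1, with adjusted p from 0.00431 to 0.472. Nrf1, whose word was counted above, had 6.62 and 6.07 TPM (-0.10, adjusted p = 0.475), Esrra 150.1 and 136 TPM (-0.14), Tfam, which packs mitochondrial DNA, 21.07 and 19.41 TPM (-0.11) and the mitochondrial RNA polymerase Polrmt 7.18 and 7.12 TPM (0.00). None of those 4 passed on TPM. On median-scaled TPM Polrmt passed at 0.23, and in voom on the recovered reads Nrf1 (0.19, adjusted p = 0.0473) and Tfam (0.19, adjusted p = 0.0271) were higher. Over the alternatives the adjusted p ranged from 0.0473 to 0.758 for Nrf1 and from 0.0271 to 0.541 for Tfam.

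**Figure D5:**
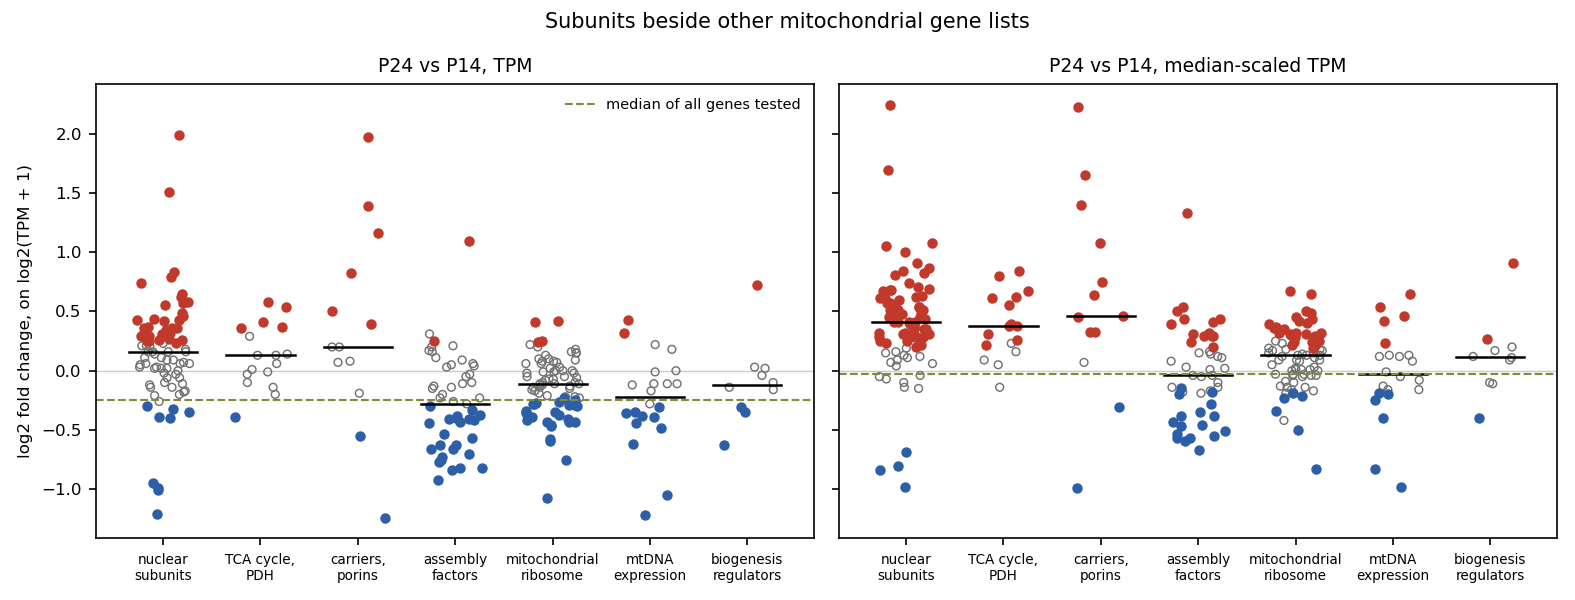
Log2 fold changes at P24 against P14 of the 81 nuclear subunits beside other mitochondrial gene lists, on TPM (left) and median-scaled TPM (right). Red and blue points passed the test as higher or lower, open points did not, bars are list medians and dashed lines the median of all genes tested. Subunits, citric acid cycle genes and carriers lie above 0 in the median on both scales, whereas assembly factors have medians of -0.28 and -0.04.

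Few subunits differed between rmIl22 and PBS. Of 90 members tested against PBS 0 were called higher and 1 lower, where 0.443% of all genes were higher and 2.25% lower. At an unadjusted p under 0.05, 0 members were higher and 6 lower in limma, where 1646 of 14456 genes were lower, and 0 were higher and 1 lower in voom on the recovered reads. After adjustment voom called 0 members and 1.62% of all genes lower. On median-scaled TPM 1 was lower, against 1.65% of all genes. The median of the members was -0.12 against -0.05 for all genes, and 13 members had every rmIl22 library under every PBS library and 0 had every one above, where 15.4% and 5.62% of all genes did. That median was -0.06 on median-scaled TPM and -0.04 in voom. With a term for Xist in the fit it was 0.08, but this fit sets rmIl22 library 1 alone against PBS. The other rmIl22 libraries held Xist at 1 TPM or more, and no PBS library did. Library rmIl22 1 was the highest of its group in 78 of 90 members and rmIl22 library 2 the lowest in 63, and the median coefficient of variation of the nuclear members was 14% in rmIl22 against 6.12% in PBS.

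Atp5s was the member called. It read 16.63, 14.98 and 17.83 TPM in PBS and 10.01, 10.14 and 11.2 TPM in rmIl22 (log2 fold change -0.61, SE 0.11, adjusted p = 0.0412 in limma). The groups were apart, and the rmIl22 values lay between those of P24 and P14. The call was lost in 9 of 14 alternatives, with adjusted p from 0.00364 to 0.18. Among them were the fit with the replicate block (0.0824) and voom on the recovered reads (0.0665). The fits without each PBS library and without rmIl22 library 1 or 3 lost it too. Another was the fit with a term for Xist, which sets rmIl22 library 1 alone against PBS (log2 fold change -0.66). The authors' deposited table of this comparison lists 1102 genes, all with an adjusted p of at most 0.00999, and of the members it holds Atp5s (log2 fold change -0.62). Over all genes the number called fell from 389 to 4 without PBS library 3 and rose to 1324 without rmIl22 library 2.

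Apart from Atp5s, none of the members named above passed between the injected groups. Cox7a1 read 90.4, 102.3 and 94.6 TPM in PBS and 105.1, 69.14 and 107.1 TPM in rmIl22 (-0.06, adjusted p = 0.939). Both groups, taken at day 16, lay between the P14 and the P24 libraries. Cox7a2l had 431.4, 352.5 and 407.1 TPM against 417.2, 317.1 and 449.3 TPM (-0.02), and Cox5a 454.8, 546.6 and 503.8 TPM against 579.9, 459.4 and 442.3 TPM (-0.03). Cox8b had 2.45, 3.22 and 4.05 TPM against 5.7, 0.413 and 2.59 TPM, a spread that left its log2 fold change of -0.37 with an SE of 0.51. Among the abundant subunits mt-Co1 read 15380, 13510 and 14250 TPM in PBS and 17390, 10450 and 16860 TPM in rmIl22 (0.02, adjusted p = 0.991), and Atp5b 684.3, 782 and 865.7 TPM against 850.6, 662.5 and 646.3 TPM (-0.12). The rmIl22 libraries reached above and below the PBS range in all of these but Atp5b, where they overlapped it from below, and rmIl22 library 2 or 3 was the lowest. Of the other lists 1 gene was called, Atpaf2, which fell by 0.72 on the log2 scale (adjusted p = 0.0447), a call lost in 10 of 14 alternatives (adjusted p from 0.00421 to 0.218).

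Of the 34 members that rose at P24, the PBS mean at day 16 lay above the P14 mean in 34 and between the P14 and P24 means in 28, and for rmIl22 these counts were 34 and 32. Of the 9 that fell, the PBS mean lay between the ages in 6 and above both in 3, and the rmIl22 mean between the ages in 9. These members were picked by their difference between P14 and P24, and that choice by itself favours such positions. No counts for all genes are given beside them, so they do not show a state at day 16 particular to these members. The injected mice were a separate experiment, and these positions were not tested.

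Whether the change from P14 to P24 differed from that under IL-22 was tested as the difference of both effects in a fit of all 14 libraries. In the first, weaning and age cannot be told apart. The difference was called in 22 of 90 members, 19 with the higher effect at P24 and 3 with the lower. Of all genes 6.51% and 17.3% were called in these directions. On median-scaled TPM 53 members were called, where 13.1% of all genes were called higher and 14.5% lower. The count was 14 without PBS library 2 and 34 without rmIl22 library 1. Cox7a1 differed most (2.05, SE 0.21, adjusted p = 1.57e-05), followed by Cox8b (1.88, SE 0.63, adjusted p = 0.0444, lost in 12 of 18 alternatives with adjusted p from 0.00969 to 0.0985). Cox7a2l (-0.93, SE 0.20, adjusted p = 0.00587), Ndufa4l2 (-0.86, adjusted p = 0.00907) and Atp5k (0.84, adjusted p = 0.0028) came next, and Atp5s was lower by 0.61 in the age effect (adjusted p = 0.00852). By complex, 3 of 35 complex I subunits were called, 1 of 4 in complex II, 2 of 8 in complex III, 10 of 17 in complex IV and 6 of 17 in complex V, and 0 of 9 mitochondrially encoded members (1 at an unadjusted p under 0.05, and 1 called on median-scaled TPM).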

How the data were processed

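RNA of whole ileum was measured in 14 libraries by RNA-seq after removal of ribosomal RNA with a strand-marking kit, per the labels' protocols. The submitters' processing notes name FastQC 0.11.2, STAR 2.4.0f, HTSeq 0.6.1p1, DESeq2 1.14 and the genome mm10, with roles, annotation and strand setting not given in the sources used here. Values are TPM from the table the authors deposited, with 46882 rows, of which 27 carry a number in place of a symbol and were left out (at most 0.078% of a library's TPM). The authors' deposited tables of both comparisons, with log2 fold changes and adjusted p-values written with decimal commas, were used for description only. Every sample column was used, and 0 columns were left out.

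Groups follow the labels. Numbers of the P14 and P24 columns (1, 2, 4, 5 and 1, 2, 6, 8) are not the labels' replicate numbers, so these libraries were assigned by group only. P-values measure the spread between libraries, which may be technical where mice were not separate. Libraries of a group differed by more than counting noise (chi-square per degree of freedom 30.9 to 255).

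Whole reads per gene were recovered from the TPM, whose values in a gene are multiples of 1 read: 31216 of 31216 genes with any value gave whole numbers in all libraries (100%, tolerance 0.01), with 35.7 to 46.5 M reads per library. A gene with a value in 1 library only passes this check by design. The smallest whole numbers that fit were taken, so the reads of sparse genes are lower bounds. Reads are not molecules, so low counts cover counting error only.

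Tests used limma 3.58.1 in R 4.3.3 on log2(TPM + 1), which understates the change of low genes, over genes with at least 1 TPM in 4 libraries (P24 against P14) or 3 libraries (rmIl22 against PBS). The difference of both effects was tested in 1 model over the 14 libraries, and these 2 comparisons share no libraries. P-values were adjusted over all genes tested by Benjamini-Hochberg, with a threshold of 0.05. Recovery of reads and of known changes was tested on simulated data. Named genes are the 5 largest called changes in each direction, 14 representative subunits (of which mt-Atp6 lay under the minimum), isoform pairs, and for other lists the largest called change each way and 15 set genes. Members and lists were chosen with earlier results of these data known.

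Alternatives were median-scaled TPM, TPM rescaled without mt- genes, a pseudocount of 0.1, no filter, all 14 libraries in 1 fit, each library left out, and a replicate block. Chosen after seeing the data were voom on the recovered reads and a term for Xist. For the injected groups that term leaves rmIl22 library 1 alone against PBS. PBS and rmIl22 libraries of the same number had correlations of -0.07, 0.33 and -0.05 between their deviations from the group means. Promoter windows are RefSeq's (GRCm38.p6). Mitochondrial copies were searched with BLAST 2.17.0 among annotated nuclear transcripts of GRCm38 only, not in the whole genome sequence.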

Additional observations from a re-analysis of the deposited data

Results flagged for a closer look

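P24 library 8 stood apart from the other 3 libraries of its group in 3 genes, by a gap larger than Dixon's critical share of the group's range. Atp5a1 was at 656 TPM there and at 743 to 757 TPM in the others, and Atp5b at 678 TPM against 750 to 763 TPM. Both encode the catalytic head of ATP synthase. The low-oxygen isoform Cox4i2 was at 1.92 TPM against 1.22 to 1.28 TPM. In all, 82 groups of 4 libraries were examined and 3 passed, where chance flags about 1 in 20.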

How the results depend on the processing

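The number of subunits called depends on the scaling of the libraries. Nuclear members called higher at P24 went from 33 to 60 on median-scaled TPM and 62 in voom on the recovered reads (25 to 34 with 1 library left out), and those called lower from 9 to 4 and 4 (8 to 11). Mitochondrially encoded members called higher went from 1 to 3 and 6 (1 to 2, the latter without P14 library 5 or P24 library 1). In voom the signs of Ndufs1 (0.25), Nrf1 (0.19) and Tfam (0.19) turned positive. For rmIl22 against PBS, nuclear members called lower went from 1 to 0 without a filter, with the replicate block and in voom. They went to 2 with all 14 libraries in 1 fit, and to between 0 and 1 with 1 library left out. All genes called there went from 389 to 98 without a filter, 1039 with all 14 libraries in 1 fit, 122 with a term for Xist, and 4 (without PBS library 3) to 1324 (without rmIl22 library 2). Over all genes at P24 against P14, 8546 were called, and 7569 to 9086 with 1 library left out. Members with a called difference of effects went from 22 to 53 on median-scaled TPM, and from 14 (without PBS library 2) to 34 (without rmIl22 library 1). The cause was not tested.

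Of 42 named genes called at P24 against P14, 35 kept their call under every alternative run and 7 lost it in some. Both genes called under rmIl22 lost it in some, and of 12 called differences 8 kept it. With the replicate block, 280 genes were called for rmIl22 against PBS in place of 389 and 0 members were lower or higher. Same-numbered libraries did not deviate together in every pair. Whether they share more than a number cannot be told from so few pairs. No paired analysis was possible because, for P24 against P14, the columns carry numbers other than the labels' replicate numbers. Depth limits Cox8b, Cox4i2, mt-Co2 and mt-Co3, which rest on few reads (at most 23 per library for mt-Co2).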
